A study of Mus musculus with 8 samples.

Results

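The activins and TGF-beta are secreted proteins that hold back the growth of liver cells, and 10 genes of this system were followed in mouse liver before and after partial hepatectomy. They were Inhba, Inhbb, Inhbc and Inhbe, which encode the beta subunits of activins and inhibins, Fst, which encodes the activin-binding protein follistatin, Tgfb1, the receptor genes Tgfbr1 and Tgfbr2, and Smad3 and Smad7. Members were taken by name alone, as every probe set (a group of short probes that reads 1 transcript) whose platform annotation gives exactly 1 gene symbol and that symbol is 1 of the 10. This gave 21 probe sets for the 10 genes, out of 45037 probe sets and 18193 genes on the array once control spots were left out. No probe set named a member together with another gene.

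RNA came from whole liver of male C57BL/6 mice aged 7 to 10 weeks, and 4 groups were compared: wild type at 0 h, wild type at 24 h, Tob1 null at 0 h and Tob1 null at 24 h. The 0 h groups were normal adults, and the 24 h groups were taken 24 h after removal of 2/3 of the liver under 60 mg/kg ketamine and 7 mg/kg xylazine. Each group had 2 Affymetrix arrays, and each array carried RNA pooled from a different set of 3 animals. The Tob1 null animals came from a germline null line on the C57BL/6 background, a deletion not restricted to any cell type, and Tob1 encodes an antiproliferative protein of the BTG/TOB family that the series title describes as a repressor of liver regeneration. Since a sham-operated group was not analysed here, effects of surgery and anaesthesia and of the loss of liver tissue cannot be told apart at 24 h.

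Activins are dimers of inhibin beta chains and signal, like TGF-beta, through a type II receptor that switches on a type I receptor. The type I receptor phosphorylates Smad2 and Smad3, which enter the nucleus with Smad4 and bind short DNA elements. Follistatin traps activins outside the cell, and Smad7 blocks the activated type I receptor, so both dampen the pathway. In liver, hepatocytes are the main source of Inhbc and Inhbe transcripts, activin A and TGF-beta1 are known to slow hepatocyte division, and follistatin is known to promote liver growth.

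Values are the deposited log2 signals after quantile normalisation between the 8 arrays, and each difference is a difference of group means on this log2 scale ± its standard error (SE) for 2 arrays against 2. A probe set was tested if it lay above 3.60, the 40th percentile, in at least 2 arrays. It is said to have risen or fallen only where its two-sided limma p, adjusted by Benjamini-Hochberg over all 30525 probe sets tested, was under 0.05. Of the 21 member probe sets 19 were tested, at least 1 for every gene. The 2 left out, Tgfb1 1445360_at and Tgfbr2 1422019_at, exceeded the limit on 0 arrays. The array detects hybridisation per probe set, so levels of different genes were not set against each other.

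Within a group the 2 arrays correlated at 0.951 to 0.959. Between 894 and 1275 probe sets per array were listed at 0 in the deposited values. The 2 probe sets of Tob1 itself went in opposite directions between the genotypes. Tob1 1423176_at was higher in the null-labelled arrays by 0.57 ± 0.16 at 0 h (limma adjusted p = 0.421) and by 0.59 ± 0.16 at 24 h (adjusted p = 0.353). Tob1 1440844_at was lower there, with differences of -1.25 ± 0.65 (adjusted p = 0.621) and -1.30 ± 0.65 (adjusted p = 0.559). The sources used here do not say which of them, if any, reads the deleted stretch, so the deletion could not be checked and the groups are called wild type and null-labelled.

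The members that passed encode ligands, follistatin and Smad3, and each count is given beside the share of all tested probe sets that passed. These counts are small and are not read as a result about the members. In wild type, 2 of the 19 tested member probe sets passed between 0 h and 24 h, 1 higher (Inhbe) and 1 lower (Inhbb 1426859_at), where 5.34% of all tested probe sets passed. In the null-labelled arrays 2 passed, 1 higher (Fst 1434458_at) and 1 lower (Inhbb 1426859_at), against 10.8% of all. In the response averaged over both genotypes 5 passed, 3 higher and 2 lower, against 23.8% of all. The member medians of these 3 responses were 0.25, 0.00 and 0.15, and the medians over all tested probe sets were 0.00, -0.02 and -0.02.

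Between genotypes no member passed in the limma fit. The count was 0 of 19 at 0 h, at 24 h and for the difference between the 24 h responses (null-labelled minus wild type), and 0.0% of all tested probe sets passed in each. At an unadjusted p under 0.05 the member counts were 3, 1 and 1 of 19, and those over all probe sets were 2779, 3134 and 2433 (9.10%, 10.3% and 7.97%). The null-labelled response of all probe sets split into 1849 higher and 1440 lower, and into 2232 and 784 with each array centred on its median instead, which moved the median of all probe sets from -0.02 to 0.11. The averaged response split into 3792 and 3467, and into 4192 and 2245 with that centring. Leaving out single arrays changed the member counts. They ranged from 0 to 3 in wild type, from 0 to 3 in the null-labelled arrays and from 3 to 6 in the averaged response, with 3 in the averaged response without either wild type array at 0 h, wild type replicate 1 at 24 h or either null-labelled array at 0 h.

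**Figure D1:**
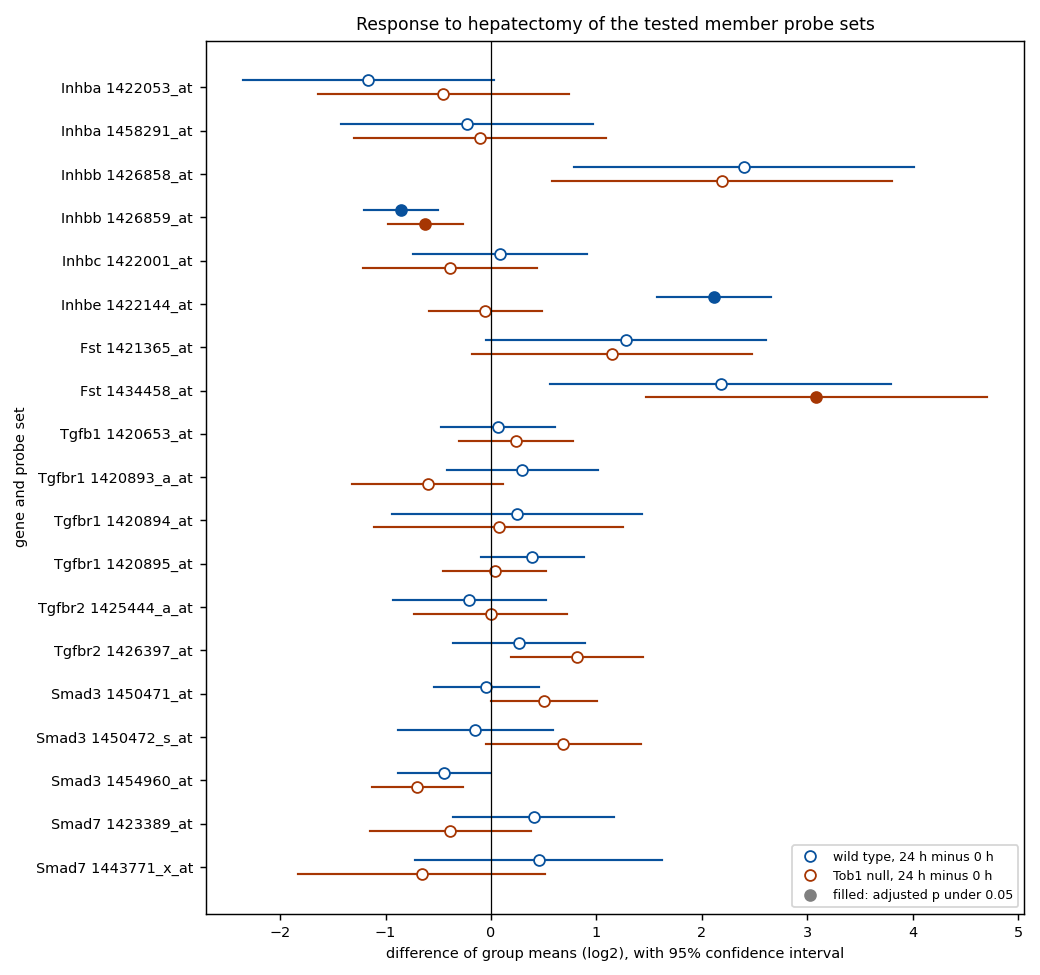
Difference between 24 h and 0 h (horizontal axis, log2) for each of the 19 tested member probe sets (vertical axis), with wild type in blue, null-labelled arrays in red and 95% confidence intervals of the limma fit. Filled points passed at an adjusted p under 0.05: Inhbe stands at 2.11 (blue) and -0.05 (red), and the 2 Inhbb probe sets lie on opposite sides of 0.

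Inhbe, which encodes the beta E subunit made mainly by hepatocytes, was the member that rose in wild type. There it read 6.48 and 6.71 at 0 h and 8.46 and 8.96 at 24 h (means 6.59 ± 0.16 and 8.71 ± 0.35, SD, n = 2). In the null-labelled arrays it read 7.55 and 7.30 at 0 h and 7.48 and 7.26 at 24 h (means 7.42 ± 0.17 and 7.37 ± 0.16). Both wild type arrays at 24 h were the highest of the 8 and both at 0 h the lowest. The 4 null-labelled arrays lay between them, and their 0 h and 24 h values overlapped, so the order of these 2 groups was not resolved.

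Inhbe rose in wild type by 2.11 ± 0.22, or 4.33-fold (95% confidence interval 1.58 to 2.65 on the log2 scale, adjusted p = 0.0224). In the null-labelled arrays its difference was -0.05 ± 0.22 (interval -0.59 to 0.48, adjusted p = 0.890). The difference between these responses was -2.17 ± 0.31 (interval -2.93 to -1.41), with an unadjusted p of 0.000420 in the limma fit and an adjusted p of 0.456, so it did not pass over all probe sets. At 0 h the null-labelled arrays were higher by 0.83 ± 0.22 (unadjusted p = 0.00913, adjusted p = 0.412 in limma), and at 24 h they were lower, with a difference of -1.34 ± 0.22 (unadjusted p = 0.000871, adjusted p = 0.240). The averaged response rose by 1.03 ± 0.16 (adjusted p = 0.00971).

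The wild type rise of Inhbe kept its size in every setting tried, from 1.87 to 2.37, and stayed under the threshold in 11 of 18. Its adjusted p was 0.115 without wild type replicate 1 at 0 h, 0.0947 without replicate 2 at 0 h, 0.0862 without replicate 1 at 24 h and 0.0513 without null-labelled replicate 1 at 0 h, and it was 0.0690 with no filter on low values and 0.0948 with only the wild type arrays fitted. The difference between responses passed with a trended and robust prior (adjusted p = 0.0179), as did the 24 h difference between genotypes (adjusted p = 0.0169), and in no other setting tried.

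**Figure D2:**
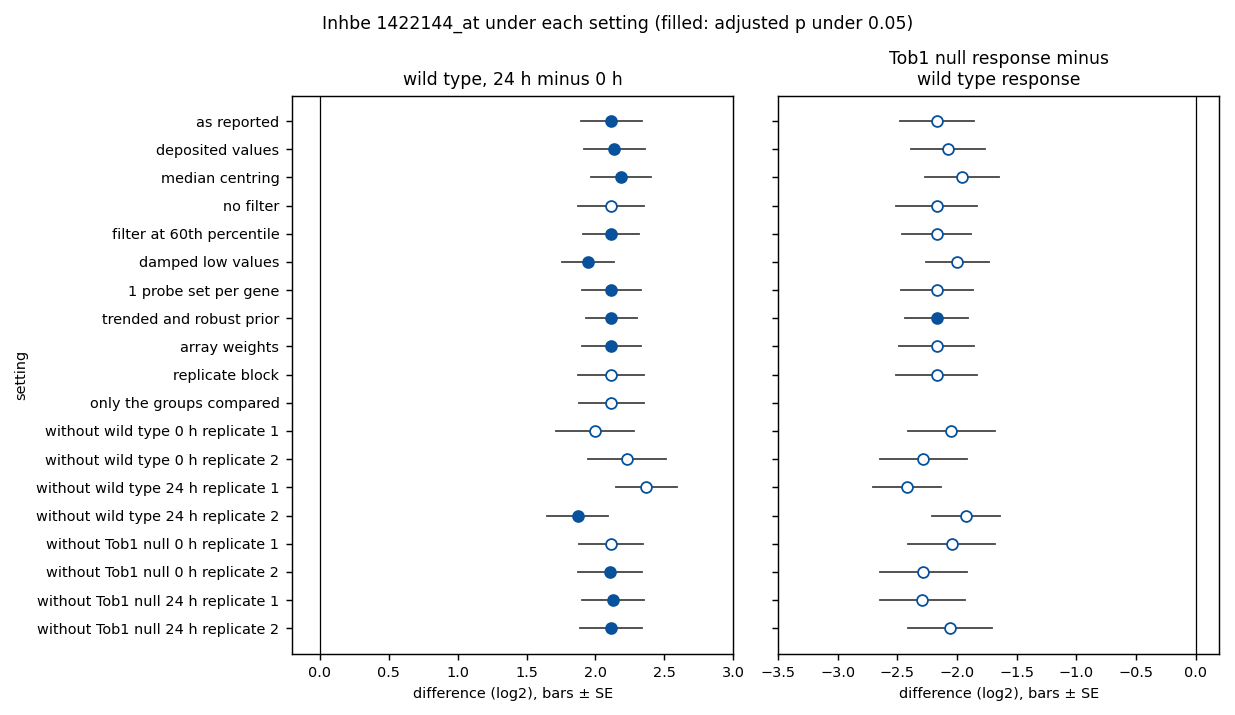
Inhbe under each processing setting (vertical axis): the wild type difference between 24 h and 0 h (left panel) and the null-labelled response minus the wild type response (right panel), in log2 units with bars of ± SE. Filled points passed at an adjusted p under 0.05; the wild type values lie between 1.87 and 2.37 and the differences between responses between -2.42 and -1.93.

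Inhbe and Inhbc, which encodes the beta C subunit, are neighbours on mouse chromosome 10 with 0 annotated genes between them, and the bases before their start sites are shown because the values of these neighbours followed different courses. Each line gives the 250 bases before the start from RefSeq's GRCm38.p6 table, 5′ to 3′ on the gene's strand, at chr10:127351849-127352098 (minus strand) for Inhbe and chr10:127370549-127370798 (minus strand) for Inhbc. Capitals mark matches to CAGAC (the Smad box) or TGATGNAA (a composite element of Atf4 and C/EBP factors) on either strand.
Inhbe: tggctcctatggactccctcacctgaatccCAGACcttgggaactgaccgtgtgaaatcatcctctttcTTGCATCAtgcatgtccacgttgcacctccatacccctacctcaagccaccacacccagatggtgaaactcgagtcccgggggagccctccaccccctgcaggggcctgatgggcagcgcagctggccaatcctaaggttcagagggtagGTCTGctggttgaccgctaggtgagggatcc
Inhbc: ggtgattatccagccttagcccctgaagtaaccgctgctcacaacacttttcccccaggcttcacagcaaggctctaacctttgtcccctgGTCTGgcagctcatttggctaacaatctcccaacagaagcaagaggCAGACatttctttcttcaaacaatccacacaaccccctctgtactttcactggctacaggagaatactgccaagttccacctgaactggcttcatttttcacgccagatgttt
Each window held 2 matches to CAGAC, at -220 and -31 before the Inhbe start and at -159 and -113 before the Inhbc start. The Inhbe window also held 1 match to TGATGNAA, on the minus strand at -181. CAGAC occurred in 42.2% of the 32851 windows of this length in the table and TGATGNAA in 3.45%. The palindrome GTCTAGAC, found in 0.167% of windows, was in none of the 9 windows of the 8 members searched. Fst and Smad7 were not searched, so the motifs before their starts are not known here. Of the other members CAGAC occurred once before Tgfbr2 and once in 1 of the windows of Tgfbr1. A match describes letters in the window and not a bound site.

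Inhbc read 8.97 and 8.85 in wild type at 0 h, 8.71 and 9.28 in wild type at 24 h, 8.86 and 8.85 in the null-labelled arrays at 0 h and 8.92 and 8.00 in those at 24 h. The 0 h arrays were close together and lay inside the range of the 24 h arrays. Its difference was 0.08 ± 0.34 in wild type (interval -0.74 to 0.91, adjusted p = 0.904) and -0.39 ± 0.34 in the null-labelled arrays (interval -1.21 to 0.43, adjusted p = 0.476).

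The 2 probe sets of Inhbb, which encodes the beta B subunit of activin B, moved in opposite directions after hepatectomy. Inhbb 1426858_at read 4.77 and 3.79 in wild type at 0 h and 7.04 and 6.32 at 24 h, and 3.84 and 3.69 in the null-labelled arrays at 0 h and 5.00 and 6.90 at 24 h. Inhbb 1426859_at read 6.87 and 6.94 in wild type at 0 h and 6.09 and 6.02 at 24 h, and 6.93 and 6.69 in the null-labelled arrays at 0 h and 6.14 and 6.23 at 24 h. The first was higher in every array at 24 h than in any at 0 h, and the second was lower. Over the 19 tested member probe sets, 4 separated the 4 arrays at 24 h from the 4 at 0 h in this way (3 higher and 1 lower), against 28.7% of all tested probe sets.

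Inhbb 1426858_at rose in the averaged response by 2.29 ± 0.47, or 4.90-fold (adjusted p = 0.0206), while its differences of 2.40 ± 0.66 in wild type (adjusted p = 0.0892) and 2.19 ± 0.66 in the null-labelled arrays (adjusted p = 0.0856) did not pass. Inhbb 1426859_at fell in wild type (-0.85 ± 0.15, adjusted p = 0.0357), in the null-labelled arrays (-0.62 ± 0.15, adjusted p = 0.0488) and in the averaged response (-0.74 ± 0.10, adjusted p = 0.00820). The responses of the genotypes differed by -0.21 ± 0.93 for the first (interval -2.49 to 2.07) and by 0.23 ± 0.21 for the second (interval -0.27 to 0.73), with limma adjusted p of 0.966 and 0.795. The sources used here do not place either probe set on the transcript, so the direction for the gene as a whole is not settled.

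The averaged fall of Inhbb 1426859_at passed in all 17 settings tried. Its wild type fall lost the threshold without any 1 of the 4 wild type arrays or of the 2 null-labelled arrays at 0 h (adjusted p 0.0690 to 0.155), and its null-labelled fall without any single array (0.0729 to 0.204). With median centring these falls had adjusted p of 0.0833 and 0.239, and with no filter 0.102 and 0.122. Of the alternative settings, the wild type fall passed in 8 of 18 and the null-labelled fall in 4 of 18. The averaged rise of Inhbb 1426858_at lost it without wild type replicate 2 at 0 h (adjusted p = 0.0623), wild type replicate 1 at 24 h (0.0675), null-labelled replicate 1 at 0 h (0.0590) or null-labelled replicate 2 at 0 h (0.0590). Its wild type difference passed in 5 of 17 alternative settings. Among them were the filter at the 60th percentile (limma adjusted p = 0.0415), damping (0.0400) and the trended and robust prior (0.0436). Its null-labelled difference passed in 3 of 17, among them that filter (0.0431) and that prior (0.0494). Without null-labelled replicate 1 at 24 h the wild type difference was 2.39 and the null-labelled one 3.13.

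Inhba encodes the beta A subunit of activin A. Inhba 1422053_at read 5.09 and 5.60 in wild type at 0 h and 3.88 and 4.48 at 24 h, and 5.51 and 4.76 in the null-labelled arrays at 0 h and 5.30 and 4.07 at 24 h. The wild type groups did not overlap, the null-labelled groups did, and none of its contrasts passed in limma. Its difference was -1.16 ± 0.49 in wild type (interval -2.35 to 0.03, adjusted p = 0.199) and -0.45 ± 0.49 in the null-labelled arrays (interval -1.64 to 0.74, adjusted p = 0.569). Inhba 1458291_at exceeded the limit on 2 arrays, both at 0 h, and differed by -0.16 ± 0.35 in the averaged response (adjusted p = 0.763).

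Tgfb1 encodes TGF-beta1, the ligand that non-parenchymal liver cells are known to make. Tgfb1 1420653_at read 4.86 and 5.13 in wild type at 0 h and 4.85 and 5.28 at 24 h, and 5.06 and 4.66 in the null-labelled arrays at 0 h and 5.07 and 5.12 at 24 h. The wild type groups overlapped, and the null-labelled arrays at 24 h lay above those at 0 h by as little as 5.07 against 5.06. Its difference was 0.07 ± 0.22 in wild type (interval -0.47 to 0.61, adjusted p = 0.881) and 0.23 ± 0.22 in the null-labelled arrays (interval -0.31 to 0.78, adjusted p = 0.513). The probe set not tested, Tgfb1 1445360_at, read between 0.00 and 2.69.

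Both probe sets of Fst, the activin antagonist, read higher after hepatectomy, and 1 of them passed. Fst 1434458_at read 3.72 and 3.96 in wild type at 0 h and 6.99 and 5.04 at 24 h. In the null-labelled arrays it read 2.63 and 3.59 at 0 h and 5.90 and 6.48 at 24 h. Every array at 24 h lay above every array at 0 h. Of the 0 h arrays the 2 wild type ones exceeded the testing limit of 3.60 and both null-labelled ones lay below it, so its differences are set against low values and no fold is given.

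Fst 1434458_at rose in the null-labelled arrays by 3.09 ± 0.66 (interval 1.47 to 4.71, adjusted p = 0.0412), and in the averaged response by 2.63 ± 0.47 (adjusted p = 0.0147). In wild type its difference was 2.18 ± 0.66 (interval 0.56 to 3.80, adjusted p = 0.108). The difference between the responses was 0.91 ± 0.94 (interval -1.38 to 3.20, limma adjusted p = 0.825), so the genotypes were not shown to differ. Fst 1421365_at read 4.33 and 3.33 in wild type at 0 h and 5.76 and 4.45 at 24 h, and 3.89 and 4.49 in the null-labelled arrays at 0 h and 5.05 and 5.63 at 24 h. Its 24 h values overlapped those at 0 h, and its averaged difference of 1.22 ± 0.38 did not pass (adjusted p = 0.0688). The averaged difference of Fst 1421365_at passed in 4 of 16 alternative settings. Among them were the filter at the 60th percentile (limma adjusted p = 0.036), damping (0.0347) and the trended and robust prior (0.0268). Without wild type replicate 2 at 24 h this difference was 1.54. The null-labelled rise of Fst 1434458_at lost the threshold without any 1 of the null-labelled arrays or of the wild type arrays at 0 h (adjusted p 0.0735 to 0.166), with no filter (0.0906), with array weights (0.0520) and with only the null-labelled arrays fitted (0.0936). The averaged rise lost it only without wild type replicate 1 at 0 h (adjusted p = 0.0503), among the 17 settings tried.

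**Figure D3:**
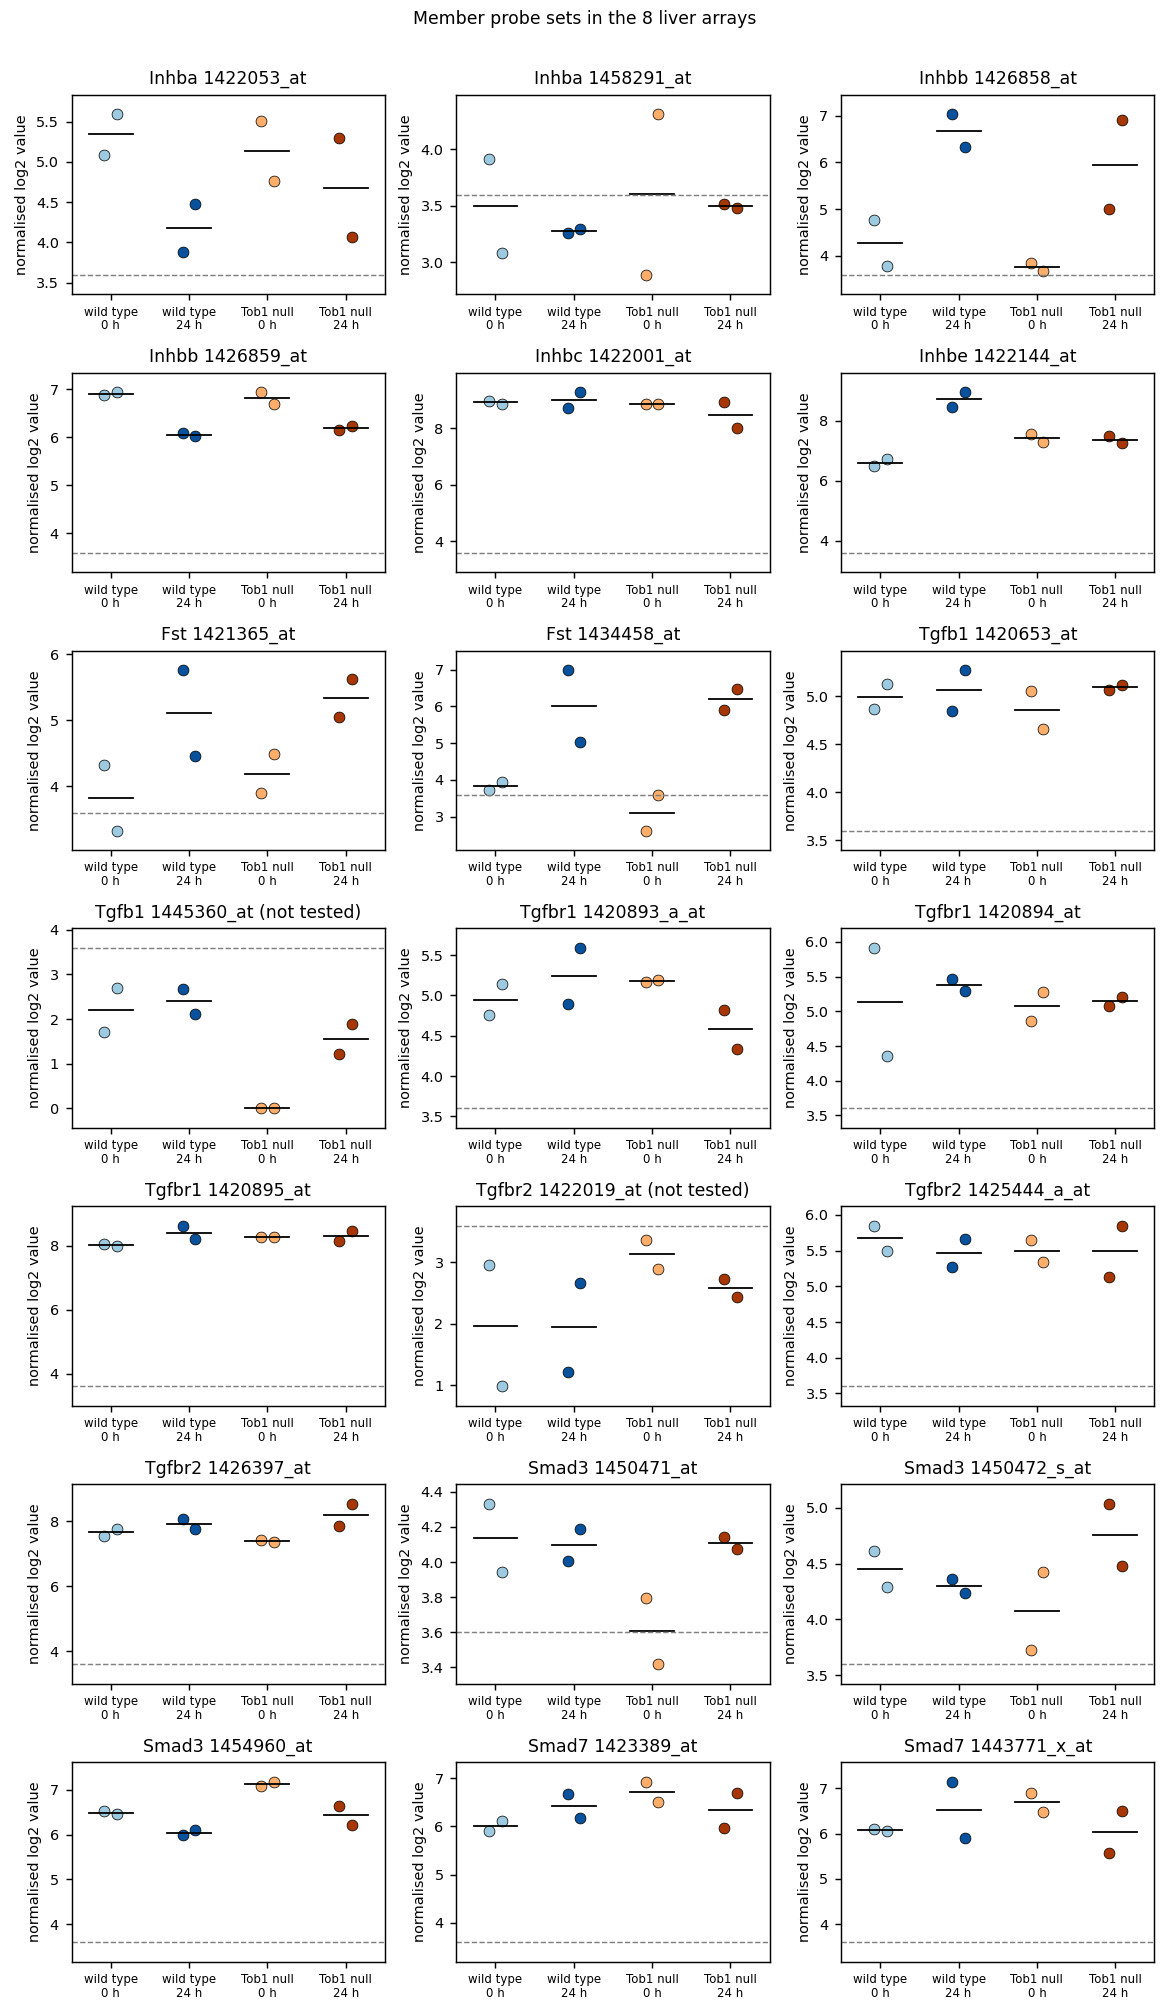
Normalised log2 signal (vertical axis, scaled separately in each panel) of each of the 21 member probe sets in the 8 arrays, by group (horizontal axis). Points are arrays, bars are group means and the dashed line is the testing limit of 3.60; Inhbe is highest in wild type at 24 h (8.46 and 8.96), and the Inhbb probe sets move apart between 0 h and 24 h.

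The receptor genes did not pass in any contrast of the limma fit as described above, and Tgfbr2 1426397_at passed in some of its alternatives. Tgfbr2 encodes the type II receptor that binds TGF-beta. Tgfbr2 1426397_at read 7.56 and 7.76 in wild type at 0 h and 8.07 and 7.77 at 24 h, and 7.42 and 7.36 in the null-labelled arrays at 0 h and 7.85 and 8.55 at 24 h. The 4 arrays at 24 h lay above the 4 at 0 h, by as little as 7.77 against 7.76. Its averaged difference was 0.54 ± 0.18 (interval 0.10 to 0.98, adjusted p = 0.0807), that in the null-labelled arrays 0.81 ± 0.26 (adjusted p = 0.0941) and that in wild type 0.26 ± 0.26 (adjusted p = 0.560). The averaged difference passed in 4 of 17 alternative settings and the null-labelled one in 4 of 18, among them the trended and robust prior (adjusted p = 0.0225 and 0.0246) and the fit without null-labelled replicate 1 at 24 h (0.0259 and 0.0488). Tgfbr2 1425444_a_at lay between 5.13 and 5.85 at both times and differed by -0.11 ± 0.21 in the averaged response (adjusted p = 0.748). Tgfbr2 1422019_at, not tested, read between 0.98 and 3.36.

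Tgfbr1 encodes the type I receptor that phosphorylates Smad2 and Smad3. Its probe set Tgfbr1 1420895_at read 8.06 and 7.98 in wild type at 0 h and 8.63 and 8.20 at 24 h, and 8.27 and 8.27 in the null-labelled arrays at 0 h and 8.13 and 8.47 at 24 h. The wild type groups did not overlap and the null-labelled groups did. Its difference was 0.39 ± 0.20 in wild type (interval -0.10 to 0.88, adjusted p = 0.275) and 0.03 ± 0.20 in the null-labelled arrays (adjusted p = 0.928). Tgfbr1 1420893_a_at differed by 0.30 ± 0.29 and -0.60 ± 0.29 in the same order, and Tgfbr1 1420894_at by 0.25 ± 0.48 and 0.07 ± 0.48, with limma adjusted p between 0.224 and 0.936.

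Smad3, a transcription factor phosphorylated by the type I receptor, gave different readings in its 3 probe sets. Smad3 1454960_at read 6.52 and 6.45 in wild type at 0 h and 5.98 and 6.10 at 24 h, and 7.07 and 7.18 in the null-labelled arrays at 0 h and 6.64 and 6.22 at 24 h. Within each genotype both arrays at 24 h lay below both at 0 h, and at each time both null-labelled arrays lay above both wild type arrays. It fell by 0.57 ± 0.13 in the averaged response (1.49-fold, adjusted p = 0.0253). Its differences of -0.45 ± 0.18 in wild type (adjusted p = 0.182) and -0.70 ± 0.18 in the null-labelled arrays (adjusted p = 0.0591) did not pass, nor did that between the genotypes at 0 h, 0.64 ± 0.18 (unadjusted p = 0.0109, adjusted p = 0.418 in limma).

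The other Smad3 probe sets had averaged differences above 0, of 0.23 ± 0.15 for Smad3 1450471_at (adjusted p = 0.297) and 0.27 ± 0.21 for Smad3 1450472_s_at (adjusted p = 0.400), the suffix of the latter marking probes shared between transcripts. At 0 h Smad3 1450471_at read 4.33 and 3.95 in wild type and 3.80 and 3.42 in the null-labelled arrays, a difference of -0.53 ± 0.21 (unadjusted p = 0.0408, adjusted p = 0.527 in limma) opposite in sign to that of Smad3 1454960_at. The averaged fall of Smad3 1454960_at lost the threshold without any 1 of the wild type arrays or of the null-labelled arrays at 0 h (adjusted p 0.0522 to 0.0777). It also lost it with the deposited values (0.0582), median centring (0.0756) and no filter (0.0648). Its null-labelled difference passed in 5 of 18 alternative settings, 4 of them with all arrays (limma adjusted p 0.0203 to 0.0452). Without null-labelled replicate 1 at 24 h it was -0.90.

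Smad7 encodes the inhibitory Smad that TGF-beta itself induces. Smad7 1423389_at read 5.91 and 6.11 in wild type at 0 h and 6.66 and 6.17 at 24 h, and 6.93 and 6.51 in the null-labelled arrays at 0 h and 5.96 and 6.70 at 24 h. The wild type arrays at 0 h were the lowest but for 1 null-labelled array at 24 h. Its difference was 0.41 ± 0.31 in wild type (adjusted p = 0.460) and -0.39 ± 0.31 in the null-labelled arrays (adjusted p = 0.445). Between the responses the difference was -0.79 ± 0.44 (interval -1.87 to 0.29, limma adjusted p = 0.701). Smad7 1443771_x_at, whose suffix marks probes that may bind other transcripts, gave differences of 0.45 ± 0.48, -0.66 ± 0.48 and -1.11 ± 0.68 in the same order, with limma adjusted p between 0.397 and 0.717.

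The genes whose log2 values ran most like those of each member were found by Pearson's r over the 8 arrays, using the brightest tested probe set of each gene. They are given as a description, since all values share the same 8 arrays and the genes named are the highest of a long ranking. Predicted and clone-named genes were taken out of the 14450 genes before the ranking. For Inhbe they were Plscr2 (r = 0.963), Srrm3 (0.946) and Trip12 (0.935). For Inhbb 1426859_at they were Isoc2b (0.990), Auh (0.985) and Gstm7 (0.985), and for Fst 1434458_at Als2cl (0.990), Nek6 (0.987) and Ctla2b (0.985). For Smad3 1454960_at they were Cdkn1b (0.988), Irf7 (0.978) and Pcdh1 (0.972), and for Tgfbr2 1426397_at Mrps28 (0.987), Mrpl1 (0.982) and Pcsk1n (0.980). The leading gene was Abhd14a for Inhba (0.984), Slc7a9 for Inhbc (0.971), Atrip for Tgfb1 (0.929), Pik3ap1 for Tgfbr1 (0.976) and Scn1a for Smad7 (0.972).

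A list of 61 further genes of the pathway, in 6 roles, gave 48 genes with a tested probe set, each represented by its brightest. In wild type 1 rose and 3 fell, against 5.78% of the 14450 genes tested, and in the null-labelled arrays 0 rose and 6 fell, against 11.0%. Cd109 is counted among the falls in both genotypes, although it was tested only through arrays at 0 h. In the averaged response 3 rose and 10 fell, against 25.2%. The list medians were 0.00, -0.20 and -0.14, where those of all genes were -0.03, -0.04 and -0.04. Without any single array the counts were 0 to 2 in wild type, 0 to 2 in the null-labelled arrays and 5 to 10 in the averaged response. Median centring left 1 gene in the null-labelled response and 10 in the averaged one.

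Of the target genes in this list, Fn1, which encodes fibronectin, read 11.42 and 11.45 in wild type at 0 h and 12.51 and 12.33 at 24 h, and 11.37 and 11.23 in the null-labelled arrays at 0 h and 11.84 and 11.55 at 24 h. Its values were higher at 24 h in both genotypes with no overlap. It rose in wild type by 0.99 ± 0.16 (adjusted p = 0.0336) and in the averaged response by 0.69 ± 0.11 (adjusted p = 0.0120). Tsc22d1, a TGF-beta-induced leucine zipper gene, fell in wild type (-2.50 ± 0.48, adjusted p = 0.0445) and in the averaged response (-1.72 ± 0.34, adjusted p = 0.0188). Snai2, a transcriptional repressor, fell in wild type (-1.17 ± 0.22, adjusted p = 0.0416) and in the averaged response (-0.91 ± 0.15, adjusted p = 0.0125). Klf10, known as a TGF-beta early response gene, and Bhlhe40, a clock-related repressor, fell in the null-labelled arrays, with differences of -1.86 ± 0.42 and -1.96 ± 0.43 (adjusted p = 0.0466 and 0.0429). For neither gene were the genotypes shown to differ, since 0 of the 48 list genes passed for the difference between responses.

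Among the antagonists of the list, Cd109, which binds TGF-beta and dampens its signal, fell in wild type (-1.88 ± 0.35, adjusted p = 0.0419) and in the null-labelled arrays (-1.59 ± 0.35, adjusted p = 0.0422). It read 3.43, 4.54, 4.05 and 3.98 at 0 h and between 2.10 and 2.50 at 24 h. It was thus tested only through arrays at 0 h and lay below the testing limit on all arrays at 24 h, so the size of its fall is not resolved and its call adds no support for the list. Among the other roles, Smad4, the common partner of Smad2 and Smad3, fell in the null-labelled arrays (-0.92 ± 0.13, adjusted p = 0.0214) and in the averaged response (-0.67 ± 0.09, adjusted p = 0.00812). Of the 13 tested Smads and their regulators, Smad4 included, 2 rose and 2 fell in the averaged response (median 0.21). Acvr2a, a type II activin receptor, fell in the null-labelled arrays (-0.72 ± 0.13, adjusted p = 0.0312) and in the averaged response (-0.61 ± 0.09, adjusted p = 0.0104). Furin, the protease that cleaves the precursors of these ligands, fell in the null-labelled arrays (-0.72 ± 0.15, adjusted p = 0.0377). None of the 4 tested genes for other ligands passed.

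**Figure D4:**
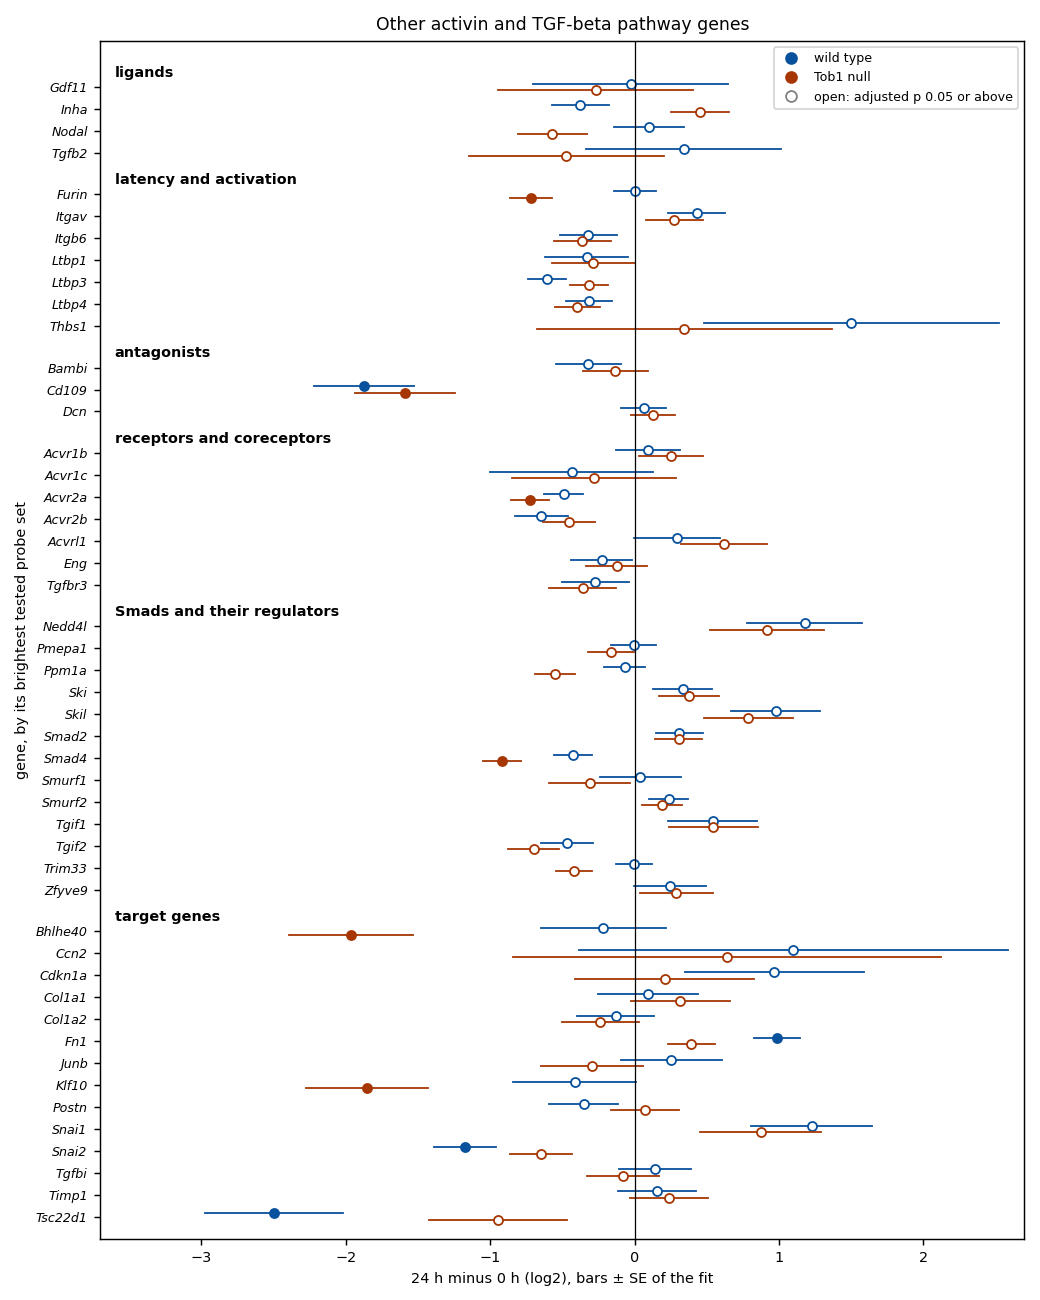
Difference between 24 h and 0 h (horizontal axis, log2, bars ± SE of the fit) for the 48 tested genes of the wider pathway list, grouped by role on the vertical axis, in wild type (blue) and the null-labelled arrays (red). Filled points passed at an adjusted p under 0.05: Fn1 lies at 0.99 and Tsc22d1 at -2.50 in wild type, and the 6 filled points of the null-labelled arrays are all below 0. Cd109, among these, was tested only through arrays at 0 h.

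Between the genotypes 0 of the 48 genes passed in limma, against 0.0% of all genes in each contrast, with 2 at an unadjusted p under 0.05 at 0 h, 3 at 24 h and 5 for the difference between responses. Over all genes 8.17%, 10.5% and 7.36% had such a p in the same order. The gene with the smallest p in each role was, for the difference between responses, Furin (-0.72 ± 0.21), Inha (0.83 ± 0.28), Bhlhe40 (-1.75 ± 0.61), Smad4 (-0.49 ± 0.19), Acvr2a (-0.23 ± 0.19) and Bambi (0.19 ± 0.32), with adjusted p from 0.601 to 0.901. At 0 h it was Furin (0.51 ± 0.15), Inha (-0.67 ± 0.20), Acvrl1 (-0.68 ± 0.30), Bhlhe40 (0.76 ± 0.43), Ppm1a (0.24 ± 0.14) and Bambi (0.08 ± 0.22), with adjusted p from 0.429 to 0.946. At 24 h it was Fn1 (-0.72 ± 0.16), Trim33 (-0.33 ± 0.12), Tgfb2 (-1.51 ± 0.67), Thbs1 (-1.69 ± 1.02), Eng (-0.32 ± 0.21) and Bambi (0.27 ± 0.22), with adjusted p from 0.297 to 0.723.

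The labelled tissue was checked against 10 hepatocyte markers, all of them tested. Their summed linear signal was 87300 to 92190 in wild type at 0 h and 91620 to 96940 at 24 h, and 90830 to 91590 and 90030 to 92600 in the null-labelled arrays. None passed in either genotype, and in the averaged response Fgb rose by 0.54 ± 0.11 (adjusted p = 0.0194) and Cps1 fell by 0.40 ± 0.11 (adjusted p = 0.0437). In these bulk samples fewer cells of a type and less RNA per cell cannot be told apart.

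Markers of other liver cell types were set beside the members' response to time, in which 25.2% of all genes passed in the averaged response. Of 10 stellate cell markers 5 fell and 0 rose in the averaged response, among them Colec11 (-1.31 ± 0.13, adjusted p = 0.00441) and Col3a1 (-0.85 ± 0.13, adjusted p = 0.0101). Their summed signal was 1874 to 2005 in wild type and 1626 to 1995 in the null-labelled arrays at 0 h, and 1181 to 1312 and 1061 to 1086 at 24 h. Of 10 Kupffer cell and macrophage markers 3 rose and 2 fell, with sums of 2160 to 2470 at 0 h and 2008 to 2705 at 24 h. Of 4 tested neutrophil markers S100a8 and S100a9 rose by 2.88 ± 0.58 (adjusted p = 0.0204) and 2.25 ± 0.54 (adjusted p = 0.0327). Mpo and Ngp had differences of -0.38 ± 0.54 and -0.57 ± 0.17 and did not pass (adjusted p = 0.644 and 0.0562). The neutrophil sums were 160 to 190 in wild type and 163 to 174 in the null-labelled arrays at 0 h, and 207 and 693 in the 2 wild type arrays and 240 and 333 in the 2 null-labelled arrays at 24 h.

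In the averaged response 2 of 10 endothelial markers rose and 0 fell, 3 of 5 tested lymphocyte markers fell and 0 rose, and 1 of 5 tested cholangiocyte markers rose and 0 fell. The endothelial sums were 1721 to 1730 at 0 h and 1337 to 1689 at 24 h in wild type, and 1170 to 1442 and 1492 to 1701 in the null-labelled arrays. Lymphocyte sums were 143 to 159 at 0 h and 101 to 114 at 24 h, and cholangiocyte sums 80.2 to 147 and 146 to 270.

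Between the genotypes 0 markers of any list passed in limma. At 0 h 9 of 10 endothelial markers (list median -0.35) and 5 of 5 cholangiocyte markers (-0.32) were lower in the null-labelled arrays, by value alone. For the difference between responses 9 of 10 endothelial (median 0.47), 9 of 10 Kupffer cell and macrophage (0.39) and 4 of 5 cholangiocyte markers (0.56) lay above 0. The medians over all genes were 0.01 at 0 h and 0.00 for the difference between responses. At an unadjusted limma p under 0.05 the lists held 0 to 2 genes in each contrast. Those with 2 were the endothelial list at 0 h, the Kupffer cell and macrophage list at 0 h and for the difference between responses, and the cholangiocyte list at 24 h. Over all genes such a p was held by 8.17% at 0 h, 10.5% at 24 h and 7.36% for the difference between responses. RNA quality was read from the log2 ratio of 3′ to 5′ signal of actin and Gapdh. For actin it was 1.04 to 1.59 at 0 h and 0.91 to 1.32 at 24 h, with its highest values in both null-labelled arrays at 0 h (1.59 and 1.54). For Gapdh these 2 arrays were again the highest (0.54 and 0.51), against 0.18 and 0.28 in wild type at 0 h and -0.0002 to 0.24 at 24 h. The part of these cell type markers and of RNA quality in the members' differences was not tested.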

How the data were processed

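Liver RNA of 4 groups, 2 arrays each with a pool of 3 animals, was labelled from 5 microgram total RNA and hybridised to Affymetrix mouse arrays, per the labels' protocols. The authors deposited 1 log2 signal per probe set and array. The log2 scale was read from the values, and the algorithm, scaling and background correction that the authors used are not given in the sources used here. Without its Affymetrix controls, the table of 45101 probe sets held 45037. The lower quartile, median and upper quartile of the arrays differed by 0.62, 0.38 and 0.17, more than the tolerance of 0.1, so the arrays were quantile normalised. Probe sets above the 40th percentile in at least 2 arrays (30525) were fitted with limma 3.58.1 in R 4.3.3 (lmFit with 4 group means, eBayes with 4 residual and 2.04 prior degrees of freedom). P-values are two-sided and Benjamini-Hochberg adjusted over all probe sets fitted, and a gene of a list is represented by its tested probe set with the highest mean. The procedure was tested on simulated data with independent noise, for the size of its estimates and for false calls. That check set no requirement on how many true changes are called.

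Precision is limited by the number of arrays. Each array held a different pool, so p-values measure the spread between pools. Fits without 1 array leave a lone array in its group, which is assumed to vary like the others. Same-numbered arrays of different groups had deviations that correlated at -0.17 to 0.06, so the numbers were not taken to pair the samples.

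The members, lists and tests were chosen with earlier results of these data known. Every probe set of the members is named. Of the pathway list, genes are named where they passed (the 6 with the smallest p where more did), and otherwise the gene with the smallest p in each role. Up to 3 genes with the highest r were found for each member. The alternatives were the deposited values, median centring, no filter, a filter at the 60th percentile, damping by adding 16 on the linear scale, 1 probe set per gene, array weights, a trended and robust prior, the replicate number as a block, only the groups compared, a threshold of 0.10 and leaving out each array. A block with the replicate numbers crossed was chosen after seeing the data.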

Additional observations from a re-analysis of the deposited data

How the results depend on the processing

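No difference that passed changed sign under any setting tried. Of 114 differences of member probe sets, 44 changed sign in 1 or more of the settings, 0 of them with an adjusted p under 0.05 before or after. For Inhbe this was the null-labelled response, which was 0.0635 with the deposited values, 0.225 with median centring and between -0.178 and 0.0680 without 1 array. Counts of member probe sets that passed are given here as wild type, null-labelled and averaged response, and were 2, 2 and 5 as reported. They were 2, 1 and 4 with the deposited values, 1, 1 and 4 with median centring, 0, 0 and 4 without a filter, 2, 0 and 5 with array weights, 3, 5 and 7 with the stricter filter, and 3, 4 and 7 with damping. The trended and robust prior gave 3, 5 and 7, and 1 member (Inhbe) at 24 h between genotypes and 1 for the difference between responses. A threshold of 0.10 gave 3, 5 and 7, and only the groups compared gave 0 and 0.

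The pathway list had 4, 6 and 13 genes as reported, with Cd109 counted in the wild type and null-labelled responses. It had 3, 1 and 10 with median centring, 0, 0 and 6 without a filter, 7, 7 and 15 with the stricter filter, 7, 8 and 17 with the trended and robust prior (and 1 at 24 h between genotypes), 5, 3 and 13 with array weights and 7, 9 and 17 at a threshold of 0.10, and 0 and 0 with only the groups compared. Without 1 array the members ranged over 0 to 3, 0 to 3 and 3 to 6 and the list over 0 to 2, 0 to 2 and 5 to 10, with 0 between genotypes. With the replicate number as a block the members were 0, 0 and 5 and the list 0, 0 and 10, and Inhbe in wild type had an adjusted p of 0.0598. The arrays share only a number, so this is not a paired analysis. With crossed numbers as the block 0 members passed between genotypes at 24 h, in a fit chosen after seeing the data.

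All tested probe sets that passed numbered 1630, 3289 and 7259 and ranged over 0 to 4536, 0 to 5906 and 3808 to 9084 with all arrays, and over 0 to 1544, 9 to 2105 and 3438 to 6420 without 1 array. Fst 1434458_at exceeded the testing limit on 6 of 8 arrays and Inhba 1458291_at on 2, which limits their differences. Inhbb 1426858_at exceeded it on all 8, but its values at 0 h began at 3.69, which limits the size of its rise.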
